A study of Mus musculus with 8 samples.

Results

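A set of 10 genes of the circadian clock and of its output was followed in the livers of endotoxemic mice, namely *Arntl*, *Npas2*, *Clock*, *Per1*, *Per2*, *Per3*, *Nr1d1*, *Nr1d2*, *Dbp* and *Tef*. They were chosen by name as core clock genes and PAR bZIP output genes. All 10 symbols were found, each on 1 of the 23282 rows of the count files, and all 10 passed the filter on low counts. The mice were C57BL/6, labelled as males of 4 weeks of age. Control mice received saline, endotoxemic mice received 25 mg/kg LPS, a bacterial cell wall component, and mice of the LGK974 group received LGK974, an inhibitor of the secretion of Wnt ligands. The labels of the LGK974 group name only the agent, and by the description of the experiment these mice were given 60 mg/kg LGK974 together with 25 mg/kg LPS, so that no group had LGK974 alone. Livers were collected 6 h after LPS, and LGK974 was given 2 h before LPS in most experiments. RNA was sequenced from transcript 3′ ends with the Lexogen QuantSeq kit.

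In mouse liver, the proteins of *Arntl* (BMAL1) and of *Clock* or *Npas2* pair up and bind E-box sequences, which switches on the *Per*, *Cry* and *Nr1d* genes together with *Dbp*, *Tef* and *Hlf*. PER and CRY proteins then block the BMAL1 pair, and the REV-ERB proteins made from *Nr1d1* and *Nr1d2* repress *Arntl*, *Npas2* and *Clock* through sequences called RORE. The PAR bZIP proteins DBP, TEF and HLF bind D-box sequences and carry the rhythm to genes of drug, heme and lipid metabolism, whereas NFIL3 represses through the same sequences. The levels of most of these transcripts in liver rise and fall over the day. The sources used here give no time of day for the injections or collections, and whether it differed between groups was not tested.

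The files held 8 libraries, but endotoxemic samples 3 and 4 repeated libraries 1 and 2 on every row and were counted once, which left 2 libraries in each group with 9142116 to 15222439 counts. The labels do not say whether these came from separate mice, so the p-values measure the spread between libraries, which may be technical. A floor of 3 counts was worth 0.197 to 0.328 CPM (counts scaled to library size), for counting error only. *Xist*, transcribed from the inactive X chromosome of females, had 1171 to 3115 counts in the control and endotoxemic samples and 3 and 7 in the LGK974 samples, while the Y-linked *Ddx3y* had 0 in the former and 1755 and 1392 in the latter. The sex-linked transcripts thus went against the labelled sex in the control and endotoxemic groups, and in every comparison with the LGK974 group, sex and treatment cannot be told apart. Although 579 rows of the files bore a symbol whose gene lies over 2 Mb from those of the neighbouring rows, each of the 10 genes stood in genomic order, with no such row directly beside it. Of 7 hepatocyte markers, 7 had counts in every library, and their summed level was 79340 to 114000 CPM in the control group, 33780 to 51810 in the endotoxemic group and 37370 to 40650 in the LGK974 group. In the fit used below, 5 of the 7 were lower in the endotoxemic than in the control group, where 23% of all rows tested were lower. *Hnf4a* (mean 256.4 CPM with LPS against 285.7 with saline) and *Tat* (346.1 against 415.5) did not pass the test. The summed level of neutrophil markers (3 of 7 in genomic order) was 1.76 to 2.16 CPM, 55.4 to 70.3 and 32.8 to 33.9 in the same order of groups. Among 4 cholangiocyte markers, *Sox9* was higher in the endotoxemic than in the control group, and *Krt19* had 19 and 30 counts with saline and 0 and 1 with LPS. In these bulk samples, fewer hepatocytes and lower levels of single transcripts or of all RNA within hepatocytes cannot be told apart. The part of these cell types in the results below was not tested.

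Promoter sequences are shown for the 5 genes in which a searched motif was found, because E-boxes, D-boxes and ROREs are the sites through which these genes are known to act on each other. RefSeq windows on GRCm38.p6 from 250 bases before to 50 bases after a start were matched for 9 of the 10 genes, all but *Per2*, and gave 14 windows. Both strands were searched for CACGTG (E-box), CACGTT (E′-box), TTACGTAA and TTATGTAA (D-box), and AANT followed by AGGTCA or GGGTCA (RORE). None of the matches overlapped another. Matches stood in 6 of the 14 windows and are printed in capitals below, 5′ to 3′ on the strand of the gene.
*Per1* (chr11:69098753-69098818, plus strand, E-box at −166): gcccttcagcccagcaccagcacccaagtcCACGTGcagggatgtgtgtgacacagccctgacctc
*Tef*, first start (chr15:81802516-81802581, plus strand, E-box at −127): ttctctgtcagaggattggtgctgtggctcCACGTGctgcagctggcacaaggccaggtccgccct
*Tef*, other start (chr15:81811246-81811311, plus strand, E-box at −138): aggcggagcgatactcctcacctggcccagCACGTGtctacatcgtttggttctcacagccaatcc
*Nr1d1* (chr11:98775378-98775435, minus strand, E′-box at −28 on the opposite strand): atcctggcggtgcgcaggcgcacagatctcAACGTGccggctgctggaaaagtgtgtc
*Per3* (chr4:151044786-151044900, minus strand, D-boxes at −205 and −158): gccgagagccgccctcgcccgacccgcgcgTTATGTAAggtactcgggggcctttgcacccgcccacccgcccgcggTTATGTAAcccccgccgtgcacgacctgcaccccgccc
*Arntl*, the more downstream of its starts (chr7:113207528-113207557, plus strand, RORE at 28): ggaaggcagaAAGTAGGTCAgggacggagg
Positions count from the RefSeq start and give the first base of the motif. The *Nr1d1* window was the 1 of 14 whose bases after the start lie in no GENCODE transcript of the gene. Of all 32851 windows, 7.15% held an E-box, 4.68% an E′-box, 1.06% a D-box and 0.435% a RORE. A match is a description of the letters, not a site of binding, and the windows of *Npas2*, *Clock*, *Nr1d2* and *Dbp* without a match say only that these letters are not in them.

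**Figure D1:**
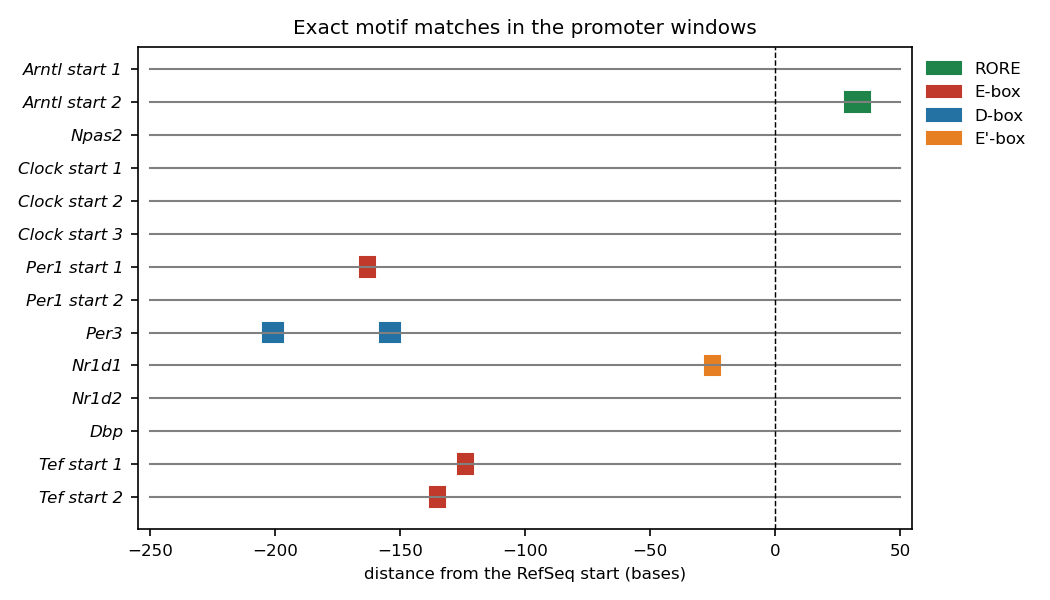
Positions of exact motif matches in 14 RefSeq promoter windows of 9 genes. The horizontal axis is the distance from the RefSeq start in bases, each grey line is a window, and boxes mark motifs by colour: Tef and Per1 carry E-boxes, Nr1d1 an E′-box, Per3 2 D-boxes and Arntl a RORE just after its start.

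LPS was compared with saline to ask what endotoxemia did to the transcripts of the clock. *Arntl* and *Npas2* rose, *Per2*, *Per3*, both REV-ERB genes and both PAR bZIP genes fell, and *Clock* and *Per1* did not pass the test. *Dbp* dropped from about 51 to below 2 CPM, and *Tef* from about 103 to below 6. At a threshold of 0.05 on the adjusted p, 2 of the 10 genes were higher and 6 lower (edgeR's quasi-likelihood test on 12701 rows, Benjamini-Hochberg adjustment). Across all rows tested, 43.4% were called in this comparison, 20.4% higher and 23% lower. The groups did not overlap for any of the 10 genes, which was the case for 77.1% of all rows. The median absolute log2 fold change of the 10 genes was 3.48, against 0.83 over all rows. *Npas2*, which had to differ for the reason given below, is among the 2 called higher and enters the other figures of the 10 genes.

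The positive arm was examined first. *Arntl* (chromosome 7 of GRCm38, 113207465 to 113314126, GENCODE M21), whose protein BMAL1 is the obligate partner in the activating pair, had 36 and 39 counts in the control samples, 104 and 69 in the endotoxemic samples, and 7 and 20 in the LGK974 samples. Both endotoxemic samples were above all others. The TMM-normalized level was 2.95 ± 0.56 CPM (SD, n = 2) with saline and 9.35 ± 2.82 with LPS, and the log2 fold change was 1.67 (SE 0.48, adjusted p = 0.0202 by edgeR). This call was lost without control library 1 (adjusted p = 0.0676), control library 2 (0.116) or endotoxemic library 1 (0.158). *Npas2* (chromosome 1, 39193731 to 39363236), which encodes an alternative partner to CLOCK, had 0 and 12 counts in the control samples, 65 and 99 in the endotoxemic samples, and 6 and 8 in the LGK974 samples. It was thus near the floor outside the endotoxemic group and passed the filter on low counts only through that group (in a fit to the control and LGK974 groups alone it was not tested), so that it had to differ and its tests against the endotoxemic group are given as a description. The log2 fold change between LPS and saline was 4.32 (SE 0.84, adjusted p = 0.00309 by edgeR), which was 3.47 without control library 1 and 9.66 without control library 2, so that its size rests on the control samples. *Clock* (chromosome 5, 76209868 to 76304792) had 257 and 431 counts in the control samples and 157 and 162 in the endotoxemic samples. In CPM, the endotoxemic group was lower (17.2 ± 0.0969, against 26.0 ± 3.05, SD, n = 2), and the log2 fold change of −0.60 did not pass the threshold (95% interval −1.20 to 0.00, adjusted p = 0.0989 by edgeR). It was called lower in 4 of 16 other settings, among them the fit to the 2 groups alone (0.0343) and the fits without LGK974 library 1 (0.0292) or 2 (0.0308).

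**Figure D2:**
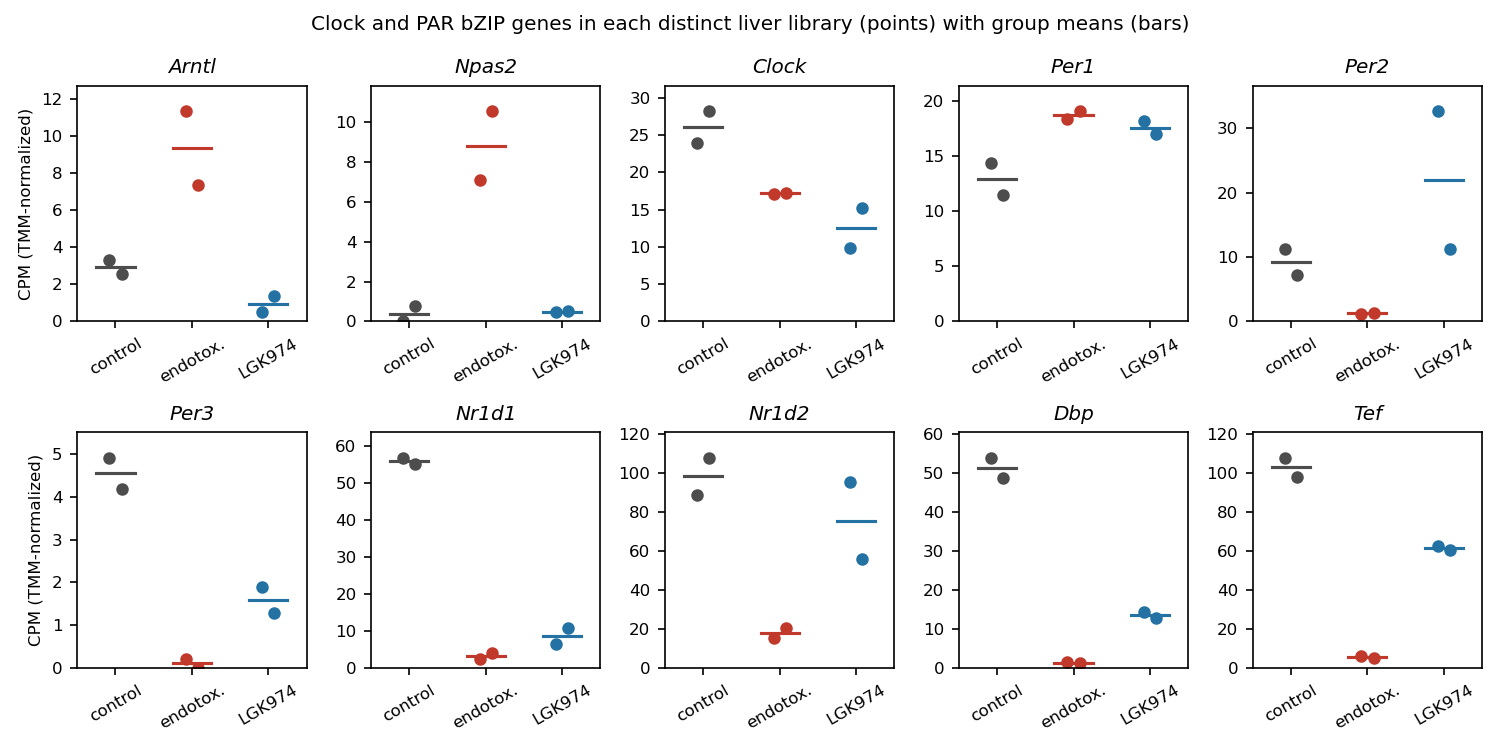
TMM-normalized CPM of the 10 genes in each of the 6 distinct libraries (points) with the mean of each group (bars), each panel on its own linear axis from 0. Arntl and Npas2 are high only in the endotoxemic samples among these 6, Dbp and Tef are near the bottom of the axis there, and the Per2 points of the LGK974 group lie far apart.

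Among the period genes, whose proteins repress the BMAL1 pair, the 3 paralogs did not move alike. *Per2* (chromosome 1, 91415982 to 91459324) had 121 and 110 counts in the control samples and 11 and 12 in the endotoxemic samples. It fell by 2.88 on the log2 scale (SE 0.58, adjusted p = 0.00374 by edgeR). *Per3* (chromosome 4, 151003652 to 151044665) had 53 and 64 counts in the control samples and 2 and 0 in the endotoxemic samples. The normalized ratio of the control group to the endotoxemic group was 41.6 (95% interval of counting error 11.3 to 348), and the gene was called lower (adjusted p = 0.00134 by edgeR). The fitted log2 fold change was −5.27, which became −8.83 without endotoxemic library 1 and −4.32 without library 2. *Per1* (chromosome 11, 69095217 to 69109960), which is also known as an immediate-early gene, had 155 and 175 counts in the control samples and 168 and 179 in the endotoxemic samples. On the CPM scale, this was 12.9 ± 2.09 CPM against 18.7 ± 0.53 (SD, n = 2), and the log2 fold change of 0.54 did not pass the threshold (95% interval −0.01 to 1.08, adjusted p = 0.102 by edgeR). Because *Per1* and *Per2* were counted in the same libraries, their ratio does not depend on scaling. The log2 ratio of *Per1* to *Per2* (counts + 1) was 0.35 and 0.67 in the control samples and 3.82 and 3.79 in the endotoxemic samples.

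Both REV-ERB repressor genes fell. *Nr1d1* (chromosome 11, 98767932 to 98775333), which encodes REV-ERBα, had 613 and 843 counts in the control samples and 22 and 39 in the endotoxemic samples. Its level went from 56.0 ± 1.27 to 3.28 ± 1.24 CPM (SD, n = 2), a log2 fold change of −4.09 (SE 0.36, adjusted p = 3.11e-05 by edgeR). *Nr1d2* (chromosome 14, 18204054 to 18239127), which encodes REV-ERBβ, had 958 and 1649 counts in the control samples and 142 and 192 in the endotoxemic samples, with a log2 fold change of −2.45 (SE 0.30, adjusted p = 0.000194 by edgeR). The log2 ratio of *Nr1d1* to *Arntl*, a repressor and its target, was 4.05 and 4.40 in the control samples and −2.19 and −0.81 in the endotoxemic samples, so that its sign changed. The end of *Nr1d1* shares 263 exon bases with *Thra*, the thyroid hormone receptor α gene on the opposite strand, and the sources used here do not say whether reads were counted by strand. *Thra* had 84 and 155 counts in the control samples and 16 and 13 in the endotoxemic samples, fewer than *Nr1d1* in each library, and it fell as well (log2 fold change −2.51, SE 0.42, adjusted p = 0.00124 by edgeR).

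The PAR bZIP genes had the lowest adjusted p-values of the 10 in this comparison. *Dbp* (chromosome 7, 45705088 to 45710203), a D-box activator gene, had 580 and 745 counts in the control samples and 13 and 12 in the endotoxemic samples. Its level was 51.3 ± 3.64 CPM (SD, n = 2) with saline and 1.35 ± 0.0986 with LPS, and the log2 fold change was −5.24 (SE 0.28, adjusted p = 2.45e-06 by edgeR). *Tef* (chromosome 15, 81802421 to 81826863), the thyrotroph embryonic factor gene with an E-box before both of its starts, had 1164 and 1498 counts in the control samples and 54 and 49 in the endotoxemic samples. Its log2 fold change was −4.21 (SE 0.22, adjusted p = 2.16e-06 by edgeR). *Dbp* shares 539 exon bases with *Sphk2*, a sphingosine kinase gene on the opposite strand. *Sphk2* had 1289 and 1832 counts in the control samples and 129 and 167 in the endotoxemic samples and fell by 2.91 on the log2 scale (SE 0.24, adjusted p = 2.4e-05 by edgeR). Each of the 6 libraries held more reads on *Sphk2* than on *Dbp*, and how reads in the shared bases were assigned was not tested.

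**Figure D3:**
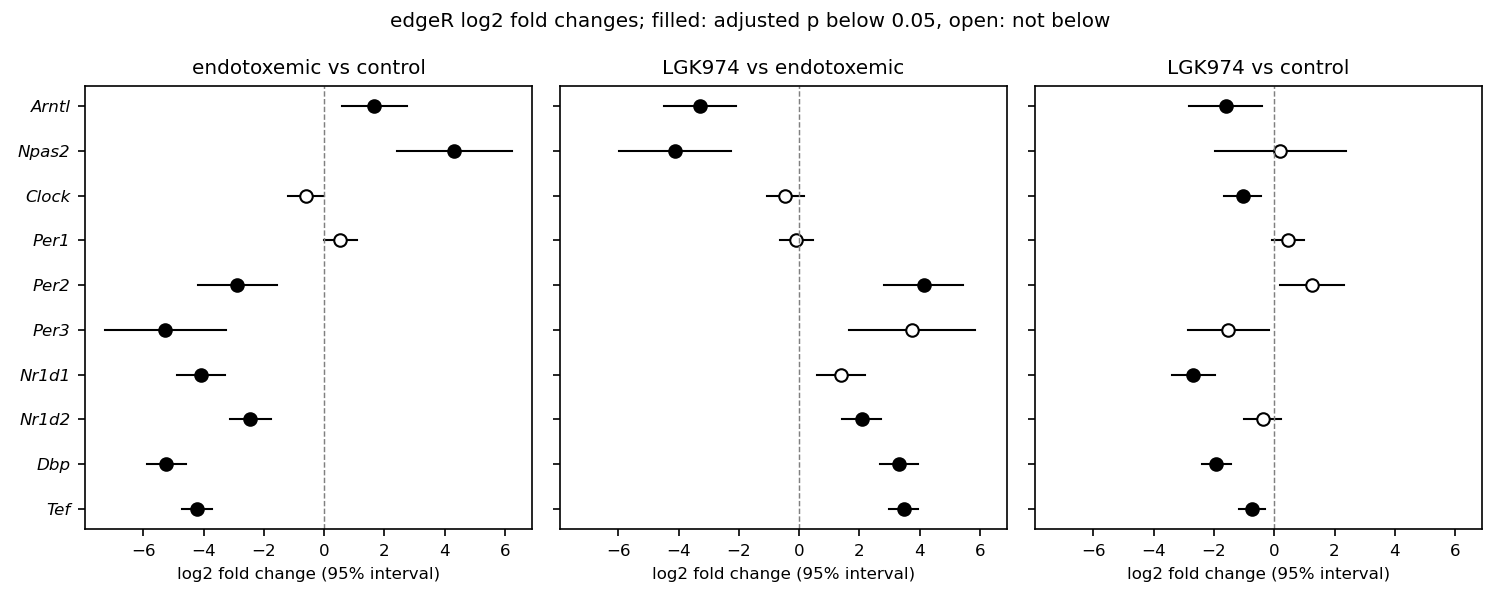
edgeR log2 fold changes of the 10 genes with 95% intervals in the 3 comparisons, on 1 shared axis. Filled points passed an adjusted p of 0.05: 8 genes in endotoxemic against control, 6 in LGK974 against endotoxemic and 5 in LGK974 against control.

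The LGK974 group was compared with the endotoxemic group to ask how these transcripts differed when the Wnt inhibitor was given with LPS. *Dbp*, *Tef*, *Per2* and *Nr1d2* were higher, and *Arntl* and *Npas2* were lower, each in the direction opposite to the LPS comparison, which shares the endotoxemic samples. Of the 10 genes, 6 were called, 4 of them higher and 2 lower, where 5.62% of all rows were called, 2.8% higher and 2.82% lower. All 10 had groups that did not overlap, as did 52.5% of all rows, and the median absolute log2 fold change was 3.30, against 0.42 over all rows. These figures include *Npas2*, 1 of the 2 called lower, which had to differ from the endotoxemic group as said above. *Tef* had 828 and 894 counts in the LGK974 samples, with 61.5 ± 1.42 CPM (SD, n = 2) against 5.56 ± 0.473 in the endotoxemic group and a log2 fold change of 3.47 (SE 0.22, adjusted p = 9.91e-05 by edgeR). *Dbp* had 191 and 188 counts in the LGK974 samples and a log2 fold change of 3.32 (SE 0.28, adjusted p = 0.000639 by edgeR). *Sphk2*, which shares exon bases with *Dbp*, was higher as well (1.56, SE 0.23, adjusted p = 0.00901 by edgeR). Of the 6 calls, those on *Tef* and *Dbp* did not depend on having both endotoxemic samples. Without endotoxemic library 1 or 2, 2 of the 10 genes were called, at a point where 85 and 49 of all rows were called in place of 714.

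The calls on the other 4 genes were lost when either endotoxemic library was left out. *Per2* had 432 and 166 counts in the LGK974 samples, so that library 1 had 32.6 CPM and library 2 had 11.2, both above the endotoxemic samples at 1.20 and 1.28. Its log2 fold change was 4.13 (SE 0.58, adjusted p = 0.00685 by edgeR, and 0.084 and 0.0978 without endotoxemic library 1 or 2), which was 3.17 without LGK974 library 1. *Nr1d2*, with 1260 and 827 counts, had a log2 fold change of 2.07 (SE 0.29, adjusted p = 0.00694 by edgeR, and 0.095 and 0.0671 without either library). For *Arntl*, with 7 and 20 counts, the log2 fold change was −3.28 (SE 0.53, adjusted p = 0.0122 by edgeR, and 0.118 and 0.0671 without either library), and it was −4.12 without LGK974 library 2. For *Npas2*, with 6 and 8 counts, the log2 fold change was −4.12 (SE 0.82, adjusted p = 0.0241 by edgeR, and 0.123 and 0.219). Neither *Per3* nor *Nr1d1* passed the threshold. *Per3* had 25 and 19 counts in the LGK974 samples and a normalized ratio to the endotoxemic group of 14.6 (95% interval of counting error 3.8 to 124, adjusted p = 0.0505 by edgeR). Its fitted log2 fold change of 3.75 became 7.35 without endotoxemic library 1 and 2.80 without library 2. *Nr1d1* had 85 and 160 counts, and its log2 fold change of 1.39 had a 95% interval of 0.60 to 2.18 (adjusted p = 0.0526 by edgeR). With DESeq2 in place of edgeR both were called, with adjusted p-values of 0.0201 for *Per3* and 0.00971 for *Nr1d1*. *Clock* and *Per1* differed least from the endotoxemic group, with log2 fold changes of −0.46 (95% interval −1.06 to 0.15) and −0.09 (−0.63 to 0.45).

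**Figure D4:**
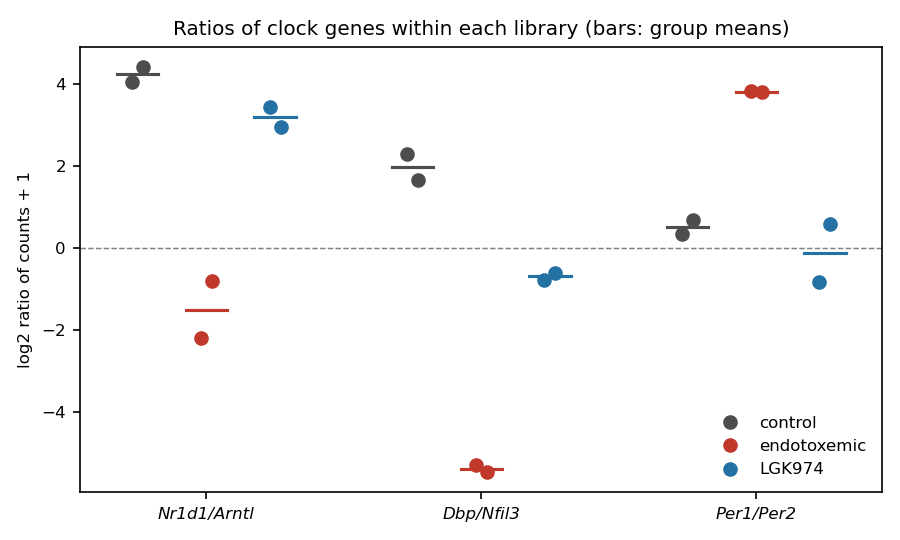
log2 ratios of counts + 1 for 3 gene pairs within each library (points) with group means (bars), by group. For Nr1d1/Arntl and Dbp/Nfil3 the endotoxemic samples lie lowest, and for Per1/Per2 they lie highest.

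Against the control group, every call among the 10 genes in LGK974 livers was towards a lower level. *Arntl* and *Clock*, of the positive arm, and *Nr1d1*, *Dbp* and *Tef* were lower, none of the 10 genes was called higher, and the other 5 were not called. Of all rows, 34.1% were called, 17.7% lower. The groups did not overlap for 8 of the 10 genes, against 68.1% of all rows. *Nr1d1* was furthest from the control level, at 8.62 ± 3.12 CPM against 56.0 ± 1.27 (SD, n = 2), with a log2 fold change of −2.69 (SE 0.32, adjusted p = 0.000242 by edgeR). *Dbp* had a log2 fold change of −1.92 (SE 0.22, adjusted p = 2e-04 by edgeR), and *Tef* one of −0.74 (SE 0.19, adjusted p = 0.0137 by edgeR). The overlapping genes *Sphk2* (−1.35, SE 0.22, adjusted p = 0.00173 by edgeR) and *Thra* (−1.85, SE 0.39, adjusted p = 0.00579 by edgeR) were lower too. *Nr1d2* overlapped the control samples, with 95.1 and 56.0 CPM against 88.9 and 108, and a log2 fold change of −0.38 (95% interval −1.00 to 0.24). This rests on LGK974 library 1, without which the gene was called lower (−0.81, adjusted p = 0.0127 by edgeR), and without library 2 the log2 fold change was −0.05. *Clock* fell by 1.05 (SE 0.27, adjusted p = 0.0145 by edgeR) and *Arntl* by 1.61 (SE 0.53, adjusted p = 0.0432 by edgeR). Without either control library, only *Nr1d1* and *Dbp*, 2 genes, stayed below the threshold, and the adjusted p-values of *Clock* were 0.0532 and 0.108, of *Tef* 0.116 and 0.0636, and of *Arntl* 0.17 and 0.0868. The call on *Arntl* was also lost without LGK974 library 1 (log2 fold change −1.10, adjusted p = 0.134 by edgeR), without endotoxemic library 1 (0.0846) or 2 (0.0714) and in the fit to the 2 groups alone (0.106), and without LGK974 library 2 the log2 fold change was −2.44. *Per2* had a mean level in the LGK974 group of 21.9 ± 15.1 CPM against 9.21 ± 2.86 (SD, n = 2), but did not pass the threshold (log2 fold change 1.26, 95% interval 0.20 to 2.31, adjusted p = 0.0656 by edgeR). That mean rests on LGK974 library 1, without which the log2 fold change was 0.30 (1.84 without library 2, adjusted p = 0.000352 by edgeR), and library 2 was level with control library 1 at 11.2 CPM. *Per2* was called higher in 5 of 16 other settings, including DESeq2 (adjusted p = 0.0446) and no filter on low counts (0.000597). *Npas2* overlapped the control samples.

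The order of the 3 groups therefore differed between genes. *Dbp*, *Tef* and *Nr1d1* were highest in the control group, lower in the LGK974 group and lowest in the endotoxemic group, with each step called except that of *Nr1d1* between the LPS groups. *Arntl* ran from endotoxemic through control to LGK974, with each step called. For *Nr1d2*, *Npas2* and *Per2*, the difference between the control and LGK974 groups was not called. For *Per3*, the step from control to endotoxemic was called and neither step to the LGK974 group was. For *Clock*, the difference between the outer groups, control and LGK974, was called and the steps to the endotoxemic group between them were not, and for *Per1* no difference passed the threshold. The log2 ratio of *Nr1d1* to *Arntl* was 3.43 and 2.94 in the LGK974 samples, between the control values (4.05 and 4.40) and the endotoxemic values and without overlap with either. The log2 ratio of *Dbp* to *Nfil3*, the D-box activator and repressor, was 2.29 and 1.66 in the control samples, −5.29 and −5.46 in the endotoxemic samples and −0.77 and −0.61 in the LGK974 samples, and the groups did not overlap.

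Of 25 other clock genes on a fixed list, 25 were found in genomic order and 23 were tested. In the endotoxemic group, 3 were higher and 9 were lower than in the control group, where 20.4% of all rows were higher and 23% lower, with a median log2 fold change of −0.50 against 0.01 over all rows. Large changes were those of *Bhlhe41*, the DEC2 repressor gene (3.39, SE 0.34), *Nampt*, the enzyme gene of NAD salvage (3.35, SE 0.51), and of *Usp2*, a clock-driven deubiquitinase gene (−2.97, SE 0.37). *Fbxl21*, a CRY ubiquitin ligase gene counted among the 9, had 30 and 56 counts with saline, 3 and 2 with LPS and 0 and 6 with LGK974 and LPS. It passed the filter on low counts only through the control group, so that it had to be lower, and its fall is a description. *Hlf*, the third PAR bZIP gene, and *Nfil3* were singled out after their values had been seen. *Hlf* had 739 and 926 counts in the control samples, 90 and 80 in the endotoxemic samples and 360 and 289 in the LGK974 samples, and its log2 fold changes were −2.81 (SE 0.25, adjusted p = 3.33e-05 by edgeR) for endotoxemic against control and 1.35 (SE 0.24, adjusted p = 0.0181 by edgeR) for LGK974 against endotoxemic. *Nfil3* had 118 and 235 counts, 546 and 570, and 327 and 288, in the same order, with log2 fold changes of 2.19 (SE 0.24, adjusted p = 0.000123 by edgeR) and −1.45 (SE 0.24, adjusted p = 0.0131 by edgeR). *Hlf* and *Nfil3* thus moved in opposite directions in both comparisons.

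Relative to the endotoxemic group, 3 of the 23 genes were higher and 2 were lower in LGK974 livers, beside 2.8% and 2.82% of all rows. Besides *Hlf* and *Nfil3*, these were *Cry2*, a repressor partner of the PER proteins (2.12, SE 0.33), *Ciart*, the CHRONO repressor gene (2.03, SE 0.42), and *Bhlhe41* (−1.69, SE 0.30). *Ciart* had 52 and 70 counts in the control samples, 27 and 25 in the endotoxemic samples and 204 and 113 in the LGK974 samples, so that it was highest in the LGK974 group. Without endotoxemic library 1 or 2, edgeR called 0 of these genes, where 6 and 5 had an unadjusted p below 0.05 and DESeq2 on all libraries called 5. Relative to the control group, LGK974 livers had 4 of these genes higher and 8 lower, where 16.4% of all rows were higher and 17.7% lower. *Fbxl21* is among the 8 and had to be lower here too, as it passed the filter only through the control group. The genes of casein kinases and ubiquitin ligases that set the stability of PER and CRY proteins, *Csnk1d*, *Csnk1e*, *Fbxw11* and *Btrc*, were singled out after their values had been seen. Over the 3 comparisons, their log2 fold changes lay between −0.32 and 0.81 (adjusted p from 0.0774 to 0.88 by edgeR).

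Genes known in liver as targets of the clock output factors were then examined, 11 of the PAR bZIP factors and 6 of the REV-ERBs, all 17 of which were tested and in genomic order. In the endotoxemic group, 16 were lower and 0 were higher than in the control group, beside 23% and 20.4% of all rows, with a median log2 fold change of −2.38 against 0.01 over all rows. Of the targets of the PAR bZIP activators 10 of 11 fell, and of the REV-ERB targets 6 of 6. The REV-ERBs are repressors whose genes, *Nr1d1* and *Nr1d2*, fell as well, so that these 6 targets moved in the same direction as their repressors. Large falls were those of *G6pc*, the last enzyme of glucose output (−8.21, SE 0.70), *Nr1i3*, the xenobiotic receptor CAR (−5.54, SE 0.43), and *Cyp2a5*, a coumarin hydroxylase (−4.77, SE 0.25). *Cyp7a1*, the rate-limiting enzyme of bile acid synthesis, had 646 and 1048 counts with saline, 5 and 4 with LPS and 0 and 2 with LGK974 and LPS. It is counted among the 16 but passed the filter only through the control group, so that it had to be lower. These genes also answer to factors other than the clock, and 5 of the 7 hepatocyte markers given above were lower in the same group.

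Between the LGK974 and endotoxemic groups, 3 of the 17 genes differed upwards and 3 downwards, beside 2.8% and 2.82% of all rows. Of the PAR bZIP targets, 2 were higher and 3 lower, with a median log2 fold change of −0.07, where *Dbp*, *Tef* and *Hlf* were each higher. Of the REV-ERB targets, 1 was higher and 0 were lower, with a median of 0.90. *Ppara*, the fatty acid sensor gene (2.74, SE 0.35), *Pck1*, an enzyme gene of gluconeogenesis (2.47, SE 0.31), and *Alas1*, the first enzyme of heme synthesis (1.43, SE 0.20), were higher. *Cyp2a4*, a P450 gene with a higher level in female mouse liver, had the largest fall (−4.26, SE 0.25), with 204 and 232 counts in the endotoxemic samples and 18 and 16 in the LGK974 samples. The control samples had 2589 and 3353 counts of this gene. The other 2 that fell were *Cyp2a5* (−1.04, SE 0.23) and *Cyp2c37* (−1.31, SE 0.26). Compared with the control group, 13 targets were lower in the LGK974 group and 0 were higher, beside 17.7% and 16.4% of all rows. *Cyp7a1* is among the 13 and had to be lower here too, as it passed the filter only through the control group. Rows out of genomic order stood directly beside *Alas1*, *Cyp2a4* and *G6pc*.

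**Figure D5:**
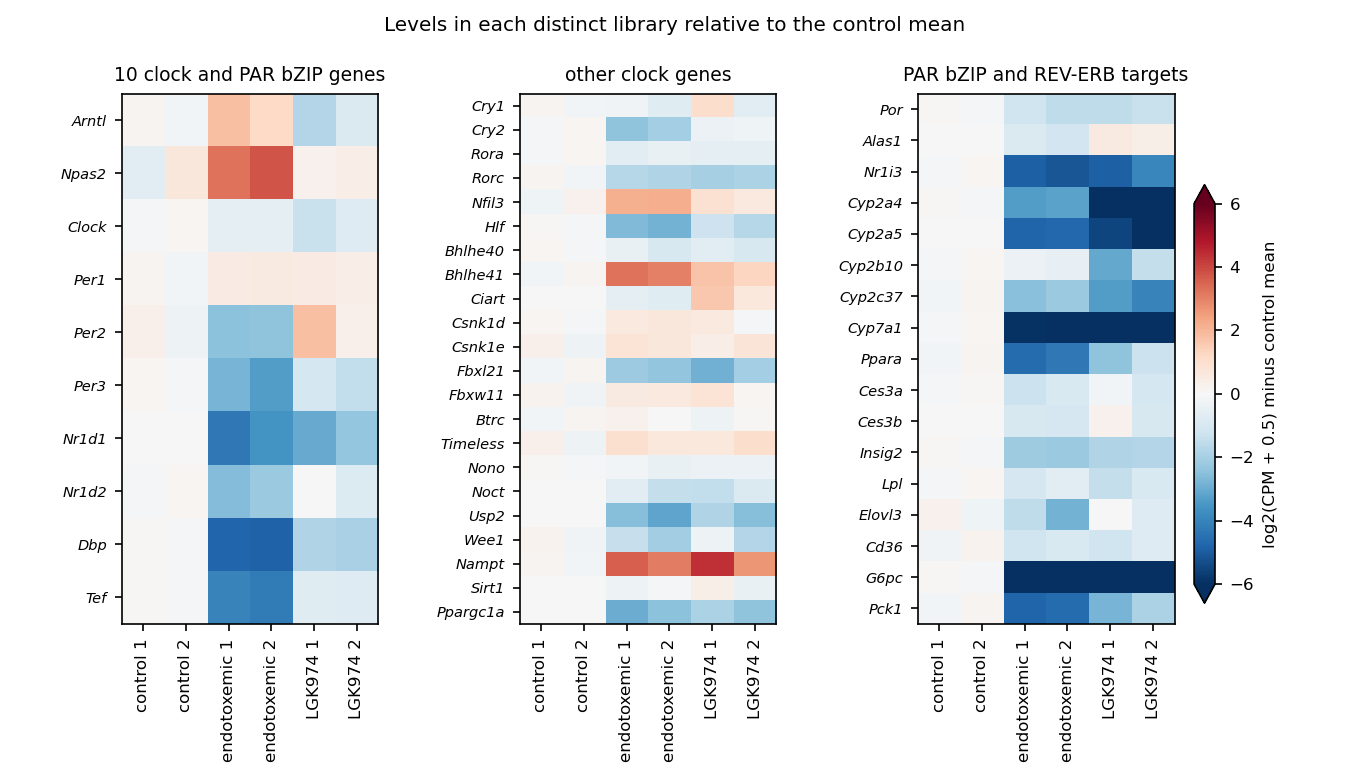
Levels of the tested genes, apart from 1 other clock gene that is not reported by name, in each distinct library as log2(CPM + 0.5) minus the mean of the control group, from blue (lower) to red (higher), with values beyond 6 in either direction at the end of the scale. Dbp, Tef and Nr1d1 are blue and Npas2 and Nfil3 are red in the endotoxemic columns, and most target genes are blue in both LPS groups.

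The rows nearest to each of the 10 genes were found by the Euclidean distance of log2(CPM + 0.5), centred on the mean of the 6 libraries, among rows in genomic order. This is a description of 6 libraries in 3 groups. *Pcsk4* was nearest to both *Dbp* (distance 0.58, Pearson's r = 0.998) and *Tef* (distance 1.00, r = 0.974), and *Reep6* was nearest to *Nr1d1* (distance 0.35, r = 0.997). *Abca6* was nearest to *Nr1d2* (0.41, r = 0.995), *Ccdc152* to *Per3* (0.40, r = 0.992), *Gfm2* to *Clock* (0.13, r = 0.994) and *Mllt1* to *Per1* (0.13, r = 0.986). *Serpina7*, *Gm1966* and *Cyp2d9* were nearest to *Arntl*, *Npas2* and *Per2*, at distances of 0.97, 1.28 and 1.25. *Cyp2d9*, a P450 gene with a higher level in male mouse liver, had 1569 and 2630 counts with saline, 405 and 506 with LPS and 5234 and 3283 with LGK974 and LPS. Among the 10 genes themselves, *Dbp* and *Per3* had the highest Pearson's r over the 6 libraries, at 0.99, and *Npas2* and *Tef* the lowest, at −0.97.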

How the data were processed

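The authors deposited raw read counts on 23282 rows named by gene symbol, from QuantSeq 3′-end libraries, whose counts do not grow with transcript length. The submitters' processing notes name Bowtie2, edgeR and mm10, and the counting program is not given in the sources used here. Identical libraries of a group were counted once. Counts were filtered with filterByExpr, normalized by TMM and fitted in R 4.3.3 with edgeR 4.0.16 as 1 quasi-likelihood model of group over 6 libraries, with adjustment over the 12701 rows tested. The SE was derived from the F statistic. The model was tested on simulated data. Row order was compared with RefSeq positions on GRCm38.p6, and rows whose gene lay over 2 Mb from those of the neighbouring ordered rows counted as out of order. The 10 genes, the lists and the tests were chosen with earlier results of these data known. The plan was to name called genes of the lists, up to the 4 largest changes in a comparison. For LGK974 against endotoxemic, every called gene of the other clock and target lists is named. For LGK974 against control, most are only counted. Of the other clock genes, 1 is counted but not reported here by name. Alternatives were other filters, DESeq2 1.42.0, other scalings, left-out rows or libraries, 2-group fits and a replicate block. In the other marker lists, calls for endotoxemic against control were mixed: *Marco* higher and *Clec4f* and *Vsig4* lower of 4 macrophage markers in genomic order, *Lyve1* higher and *Kdr* and *Clec4g* lower of 5 sinusoidal endothelial markers, and *Dcn* higher and *Lrat* and *Reln* lower of 5 stellate markers. For LGK974 against endotoxemic, *Clec4f* (−1.30, adjusted p = 0.0187) and *Clec4g* (−2.19, adjusted p = 0.0163) were lower, as was *Cd5l*, a macrophage marker on a row out of genomic order (−5.64, adjusted p = 0.00126), and the part of these cells in the results was not tested. T and B cell markers summed to at most 3.71 CPM in any library. Of the markers in genomic order, *Tat*, *Serpina1c*, *Lyve1* and *Kdr* had a row out of order directly beside them.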

Additional observations from a re-analysis of the deposited data

How the results depend on the processing

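With 2 libraries in a group, no spread within a group can be checked beyond the shared model, and genes near the floor (*Npas2* outside the endotoxemic group, *Per3* within it) have a size that few counts decide. Of the 10 genes, 8 were called in endotoxemic against control. Requiring 10 counts in every library left 7 of the 10 genes tested and 5 of these called, and *Arntl*, *Npas2* and *Per3*, called in the main fit, were then not tested. Leaving out libraries gave 2 to 8 called genes for LGK974 against endotoxemic and 2 to 6 for LGK974 against control, for which 8 were called when the identical endotoxemic libraries were treated as separate. Without control library 1, *Npas2* reversed to −0.64 for LGK974 against control and without control library 2 it was 5.55, a difference that was not called in any setting, and the cause was not tested. Among the other clock genes, leaving out libraries gave 0 to 7 for LGK974 against endotoxemic and 6 to 14 for LGK974 against control, and the fit to only the 2 groups compared gave 3 in the former. For the target genes in LGK974 against endotoxemic, the 6 calls became 11 without a filter, 10 with identical libraries as separate samples and 1 to 12 with a library left out. In that comparison, 714 of all rows were called, against 1705 without a filter, 1231 by DESeq2, 3259 with the identical libraries separate, 269 in the 2-group fit and 49 to 2242 with a library left out. Leaving out a library gave 3432 to 6719 for endotoxemic against control (5513) and 2372 to 5369 for LGK974 against control (4328). The *Per1* to *Per2* log2 ratio of the endotoxemic group was 3.86 with 0.5 added and 3.80 with 1. Same-numbered libraries shared only a number, with deviations correlated at −0.007 to 0.14. The replicate block called 8, 7 and 5 of the 10 genes in the order above, adding *Nr1d1* for LGK974 against endotoxemic (adjusted p = 0.0442) and, for LGK974 against control, adding *Per2* (0.0411) and losing *Arntl* (0.0624). The calls on *Dbp* and the direction of every other member's difference held in all alternatives run, apart from *Npas2* above.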
